A study of Sus scrofa with 92 samples.

Results

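Pooled RNA libraries, called tissue mixtures here, were set against the single tissues of the same pig breeds, and the genes that the mixtures expressed and the single tissues did not were described. The comparison used 8 mixtures and the 72 single-tissue libraries of the same 8 breeds, out of 92 libraries in the series. A gene was counted as present in mixtures alone when it reached 1 FPKM or more in the mixture and stayed below 1 FPKM in all 9 tissues of that breed, in 8 of 8 breeds. FPKM is a read level corrected for gene length and library total. The rule held for 30 of 25322 gene IDs (0.118%), and 22 of the 30 have a gene symbol.

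Pig RNA was sequenced from 10 breeds, all sampled at 60 days of age. The breeds in the comparison were Bamei, Jinhua and Meishan, which are Chinese, and Berkshire, Hampshire, Landrace, Large White and Piétrain, which are Western. Each breed had 1 mixture and 1 library of each of 9 tissues: ovary, subcutaneous adipose, the skeletal muscles longissimus dorsi and psoas major, kidney, lung, spleen, liver and heart. Rongchang had a mixture and 8 tissues, without lung, and was kept aside as a breed that the choice of genes did not use, and Tibetan wild boar had no mixture. The labels give no treatment and no genotype beyond the breed. The design text speaks of a pool beside the 9 tissues and does not say what it holds. Nor do the labels give the organs that went into a mixture, their proportions, or whether the tissues of a breed came from the same animals or from pooled animals. The breeds are therefore the replicates, and every error given is the spread between breeds. The depth behind an FPKM value is unknown. A value of 0 can also be a failed estimate: ALB, the main plasma protein made by liver, was listed at 0 in 8 of 8 livers, so a gene at 0 is called listed at 0.

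Brain tissue holds neurons, which signal through synapses, and several kinds of glia. Astrocytes supply and shield neurons and carry the filament protein GFAP. Oligodendrocytes wrap axons in myelin, whose proteins include MAG, and SNAP25 is a protein of the machinery that releases transmitter from nerve endings. Nerves that run through other organs contain axons and Schwann cells, which make myelin outside the brain.

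Correlations were taken over the 17284 genes that reached 1 FPKM in 3 or more of the 80 libraries. The Spearman correlation of a mixture with its breed's mean over 9 tissues was 0.904 to 0.932 in the 8 breeds (median 0.921). Liver was the single tissue most like the mixture in 8 of 8 breeds, at 0.834 to 0.890, and the median was lowest for ovary, at 0.668. Pairs of mixtures of different breeds were at 0.945 to 0.961. These correlations run across genes, which are not independent replicates. Mixtures had 13765 to 14520 genes at 1 FPKM or more, and single tissues had 10216 to 14561. The tissue labels fit their markers, since 80 of 83 tested marker genes of heart, liver, spleen, lung, kidney, skeletal muscle, fat and ovary had their highest mean in the labelled tissue. The 3 others belonged to the adipocyte list and were CFD, PNPLA3 and RBP4.

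The 3 brain markers named for the comparison were high in every mixture. GFAP had 25.4 FPKM in the lowest mixture (Meishan), 67.3 at the median and 136 in the highest (Hampshire), against at most 2.66 FPKM in the 72 tissue libraries, in Meishan ovary. GFAP reached 1 FPKM in 5 of 8 adipose libraries and 3 of 8 ovaries. SNAP25 had 17.3 FPKM in the lowest mixture, 43.5 at the median and 65.6 in the highest (Bamei), against at most 8.23 FPKM in a tissue, in Large White spleen. The next highest spleen had 2.60 FPKM of SNAP25, and 6 of 8 spleens reached 1 FPKM. MAG had 6.32 FPKM in the Meishan mixture, 19.0 at the median and 28.5 in the Landrace mixture, against at most 0.832 FPKM in a tissue, in Bamei psoas major. For these 3 genes the mixtures did not overlap with any tissue library, which for MAG the choice of genes fixed. All 8 mixtures lay above all 72 tissue libraries in 141 of 17284 genes (0.816%), on FPKM brought to a common scale.

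**Figure D1:**
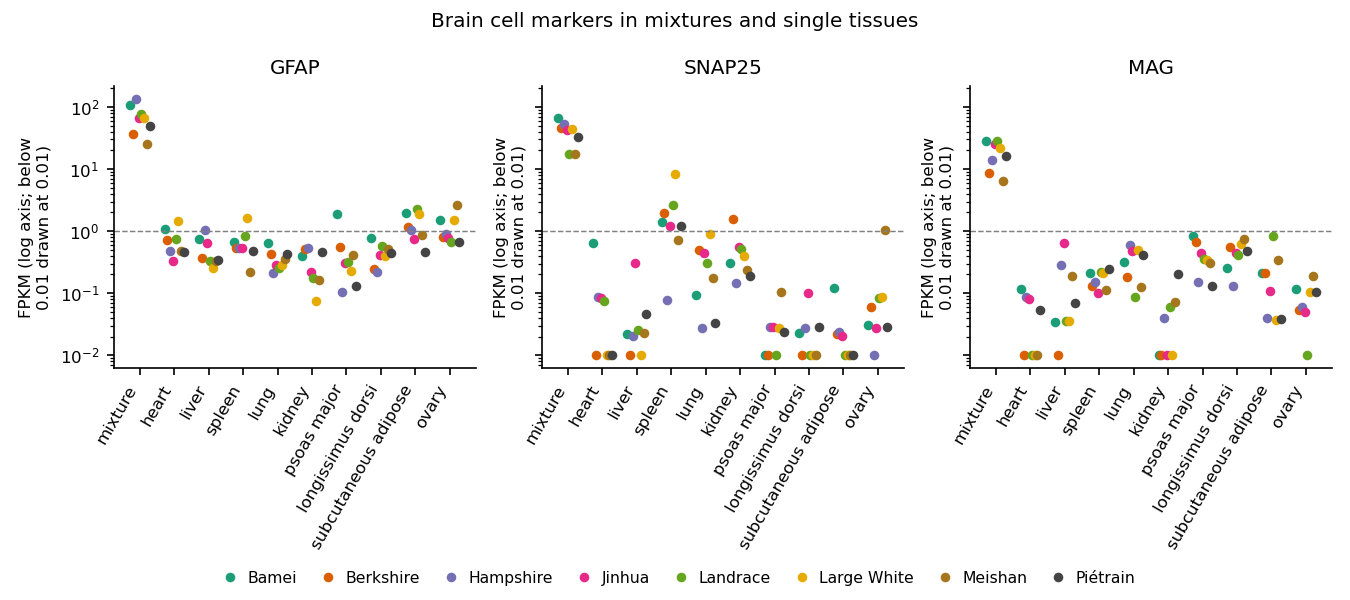
Deposited FPKM of GFAP, SNAP25 and MAG (log axis) in the 8 mixtures, leftmost, and in the 9 single tissues; each point is 1 library, coloured by breed, and the dashed line marks 1 FPKM. All 8 mixtures sit above all 72 tissue libraries for these 3 genes, for MAG by the choice of genes. The nearest tissue library is a spleen with 8.23 FPKM of SNAP25.

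Among the 30 genes found in mixtures alone, 6 belonged to the lists of nerve cell, glia and synapse genes and 8 had no symbol. Their medians over the 8 mixtures ran between 1.73 and 19.0 FPKM, with a median of 5.01 FPKM. All values in this and the next 4 paragraphs are deposited FPKM. The genes were chosen by these values, so they are described without a test. A sum over the 30 genes was 85.5 FPKM in the Meishan mixture and 329 FPKM in the Bamei mixture, the lowest and highest of the 8, and it was 2.70 to 5.67 FPKM in the highest tissue of each breed, spleen or ovary.

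Among the glial genes, MAG had the highest median of all 30. OLIG1, a transcription factor of the oligodendrocyte lineage, had 5.80 FPKM in the Meishan mixture, 9.29 at the median and 18.6 in the Bamei mixture, against at most 0.568 FPKM in a tissue, and it was listed at 0 in 48 of 72 tissue libraries. OPALIN, a membrane protein of myelinating oligodendrocytes, had 2.72 FPKM in the lowest mixture, 8.72 at the median and 20.0 in the highest, against at most 0.362 FPKM in a tissue. BCAN encodes brevican, a proteoglycan of the brain matrix. It had 4.15 FPKM in the lowest mixture, 7.98 at the median and 14.3 in the highest, against at most 0.367 FPKM in a tissue. For OLIG1, OPALIN and BCAN the lowest mixture was Meishan and the highest was Bamei.

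Genes of the neuronal cytoskeleton and membrane followed. KIF5A, a kinesin motor that moves cargo along axons, had 7.90 FPKM in the Berkshire mixture, 12.7 at the median and 20.3 in the Bamei mixture, against at most 0.684 FPKM in a tissue. NEFL, the light neurofilament, had 3.38 FPKM in the lowest mixture, 10.3 at the median and 13.9 in the highest, against at most 0.761 FPKM in a tissue. Both had a trace in most tissue libraries, since they were listed at 0 in 5 and 9 of the 72. NFASC, a cell adhesion protein of the axon's nodes, had a median of 3.14 FPKM in mixtures and at most 0.828 FPKM in a tissue. SLC12A5, the chloride exporter of mature neurons, had a median of 3.63 FPKM in mixtures and at most 0.234 FPKM in a tissue.

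Vesicle and signalling genes made up a further group. NSG2, a protein of neuronal vesicle traffic, had 1.74 FPKM in the Meishan mixture, 9.94 at the median and 20.8 in the Jinhua mixture, against at most 0.532 FPKM in a tissue, and it was listed at 0 in 60 of 72 tissue libraries. SV2A, a synaptic vesicle protein, had 2.06 FPKM in the lowest mixture, 5.05 at the median and 8.31 in the highest, and its highest tissue library, Berkshire kidney, had 0.124 FPKM. LAMP5, a lysosomal membrane protein family member found in brain neurons, had a median of 4.97 FPKM in mixtures and 12.6 FPKM in the Jinhua mixture, against at most 0.381 FPKM in a tissue. SCG2 and PTPRN, proteins of secretory granules in nerve and hormone cells, had medians of 3.71 and 2.84 FPKM in mixtures, and at most 0.577 and 0.980 FPKM in a tissue. ADCY1, an adenylyl cyclase driven by calcium, had a median of 2.77 FPKM in mixtures and at most 0.531 FPKM in a tissue. CELF3, an RNA-binding protein of the nervous system, had a median of 3.36 FPKM in mixtures and at most 0.316 FPKM in a tissue. GPR26, an orphan receptor, was the lowest of the genes with a symbol, with 1.04 FPKM in the Meishan mixture, a median of 1.96 FPKM and 4.26 FPKM in the Bamei mixture, against at most 0.114 FPKM in a tissue.

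The remaining symbols were TMEM130, VSTM2L, IGSF21, FAM163B and BRINP1, with medians of 4.16 to 7.32 FPKM in mixtures. The 8 gene IDs without a symbol had medians of 1.73 to 10.7 FPKM in mixtures. The highest of them, ENSSSCG00000026860, had 7.29 FPKM in the lowest mixture and 23.5 FPKM in the highest, against at most 0.277 FPKM in a tissue. Of the 30 genes, 8 belonged to the marker lists used below and 22 did not. The tissue library with the highest level was an ovary for 11 of the 30 genes, a spleen for 8, a heart for 3 and another tissue for 8. In all 72 tissue libraries, 15 of the 30 genes stayed below 0.5 FPKM.

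**Figure D2:**
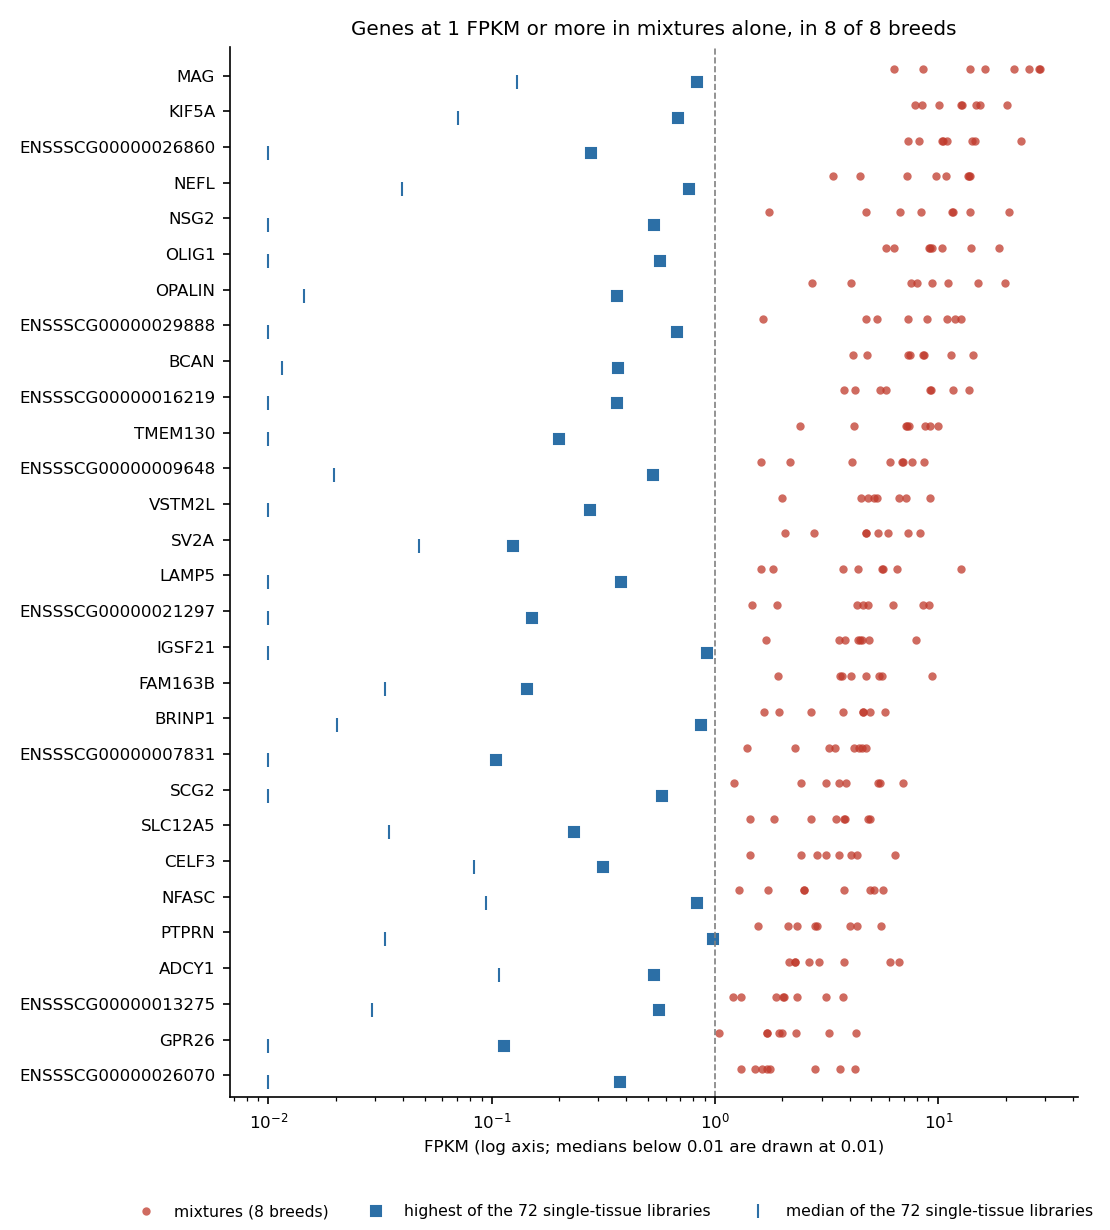
Deposited FPKM (log axis) of 29 of the 30 genes present in mixtures alone, ordered by their median in mixtures; red points are the 8 mixtures, blue squares the highest and blue ticks the median of the 72 tissue libraries, and the dashed line marks 1 FPKM. PTPRN comes nearest to the line in a tissue, at 0.980 FPKM, and GPR26 in a mixture, at 1.04 FPKM.

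The limit of 1 FPKM cut through a wider group of like genes. The rule held in 7 of 8 breeds for 32 more genes, in 5 or more breeds for 117 genes, and in at least 1 breed for 409 genes, of which 175 met it in 1 breed. Of the 32 genes that met it in 7 breeds, 20 missed it because a tissue of the last breed reached 1 FPKM and 12 because the mixture stayed below 1 FPKM, and 14 missed it in Meishan. The genes named here from just outside the rule were picked after their values were seen. TUBB3, a tubulin of neurons, reached 1.10 FPKM in Meishan ovary. HEPACAM, an adhesion protein of glia, reached 1.03 FPKM in Meishan ovary. MOG, a myelin protein, had 0.801 FPKM in the Meishan mixture, and OLIG2, a further oligodendrocyte factor, had 0.996 FPKM in the Berkshire mixture. Just inside, 9 of the 30 genes had a lowest mixture under 1.5 FPKM, and 3 had a tissue library above 0.9 FPKM, among them IGSF21 and PTPRN.

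The Rongchang libraries took no part in the choice. In its mixture 28 of the 30 genes were at 1 FPKM or more, and all 28 were below 1 FPKM in its 8 tissues. Over all 25322 gene IDs, 141 met both limits in Rongchang. The exceptions among the 30 genes were SLC12A5, with 0.747 FPKM in the mixture and at most 0.253 FPKM in a tissue, and ENSSSCG00000013275, with 0.460 FPKM in the mixture and up to 1.40 FPKM in a tissue. MAG had 32.8 FPKM in the Rongchang mixture, above the 8 other mixtures, and at most 0.478 FPKM in a Rongchang tissue. The 30 genes summed to 137 FPKM in the Rongchang mixture and to 3.58 FPKM in its highest tissue, ovary.

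The mixtures differed in how much of these genes they held. Bamei had 224 genes in its mixture alone and Meishan had 74, with the other 6 breeds between 125 and 200. The Meishan mixture was lowest for 25 of the 30 genes, and the Bamei mixture was highest for 22. The 30 genes made up 0.0137% of all FPKM in the Meishan mixture and 0.0481% in the Bamei mixture. A relative depth was read from low FPKM values, as the ratio to the Berkshire mixture that occurred most often over genes. It was 0.917 for the Meishan mixture and 1.21 for the Bamei mixture, within a range of 0.917 to 1.23 over 7 mixtures. The 72 tissue libraries ran from 0.637 to 2.11, and most of them lay below the lowest mixture. The part of this relative depth in the number of genes found in a mixture alone was not tested. In these bulk libraries, fewer cells of a type and less RNA per cell cannot be told apart.

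Each gene was then tested within breeds, as the mixture minus the mean of the 9 tissues, on log2 of scaled FPKM plus 1 with limma and Benjamini-Hochberg adjustment. Scaled FPKM is the level after all libraries were brought to a common scale. Of 17284 genes tested, 3005 were higher in mixtures (17.4%) and 8467 were lower (49%) at an adjusted p below 0.05. The median log2 difference over all genes was −0.13, and it moved between −0.38 under quantile normalization and 0.00 when each breed was centred, so small differences depend on the scaling. In simulated data, many unchanged genes also passed this test against the tissue mean at any size, and few did past a log2 difference of 1, so these 2 counts at any size are given as a background and not read. Past a log2 difference of 1 as well, 391 genes were higher (2.26%) and 893 were lower (5.17%). A limit on size was added after the data were seen. A pool of the 9 tissues in any proportions would stay at or below their highest, apart from error and scaling, so each mixture was also compared with the highest of the 9 tissues of its breed. By that comparison 291 genes were higher in mixtures (1.68%), 150 of them past a log2 difference of 1 (0.868%). In 204 genes (1.18%) the mixture was above in 8 of 8 breeds. In 141 genes (0.816%) all 8 mixtures were above all 72 tissue libraries, on scaled FPKM.

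Brain genes were among those with the largest rise over the tissue mean. GFAP averaged 67.3 ± 34.7 scaled FPKM in mixtures and 0.684 ± 0.219 in the tissue mean (SD, n = 8 each), a log2 difference of 5.18 (SE 0.30, limma adjusted p = 1.86e-06). SNAP25 averaged 37.5 ± 15.3 scaled FPKM in mixtures and 0.298 ± 0.222 in the tissue mean (SD, n = 8 each), a log2 difference of 4.79 (SE 0.28, limma adjusted p = 1.86e-06). TUBB4A, a tubulin of neurons and oligodendrocytes, averaged 44.5 ± 17.4 scaled FPKM in mixtures and 0.831 ± 0.225 in the tissue mean (SD, n = 8 each), a log2 difference of 4.51. SLC17A7, which loads glutamate into synaptic vesicles, averaged 17.3 ± 6.53 scaled FPKM in mixtures and 0.227 ± 0.0359 in the tissue mean (SD, n = 8 each), a log2 difference of 3.81. FABP7, a fatty acid binding protein of glia, averaged 18.7 ± 7.35 scaled FPKM in mixtures (SD, n = 8), a log2 difference of 3.63. FBXL16, TUBB3 and NRSN1, with log2 differences of 3.94, 3.92 and 3.61, were also among the 12 largest, as were MAG and KIF5A of the 30 genes above. Apart from MAG and KIF5A, for which the choice of genes fixed it, each of these genes lay above the highest tissue in 8 of 8 breeds. Over the highest tissue the log2 difference was 4.59 for GFAP (limma adjusted p = 5.72e-08), 3.95 for SNAP25 (limma adjusted p = 3.72e-07) and 3.20 for SLC17A7 (limma adjusted p = 5.60e-08).

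**Figure D3:**
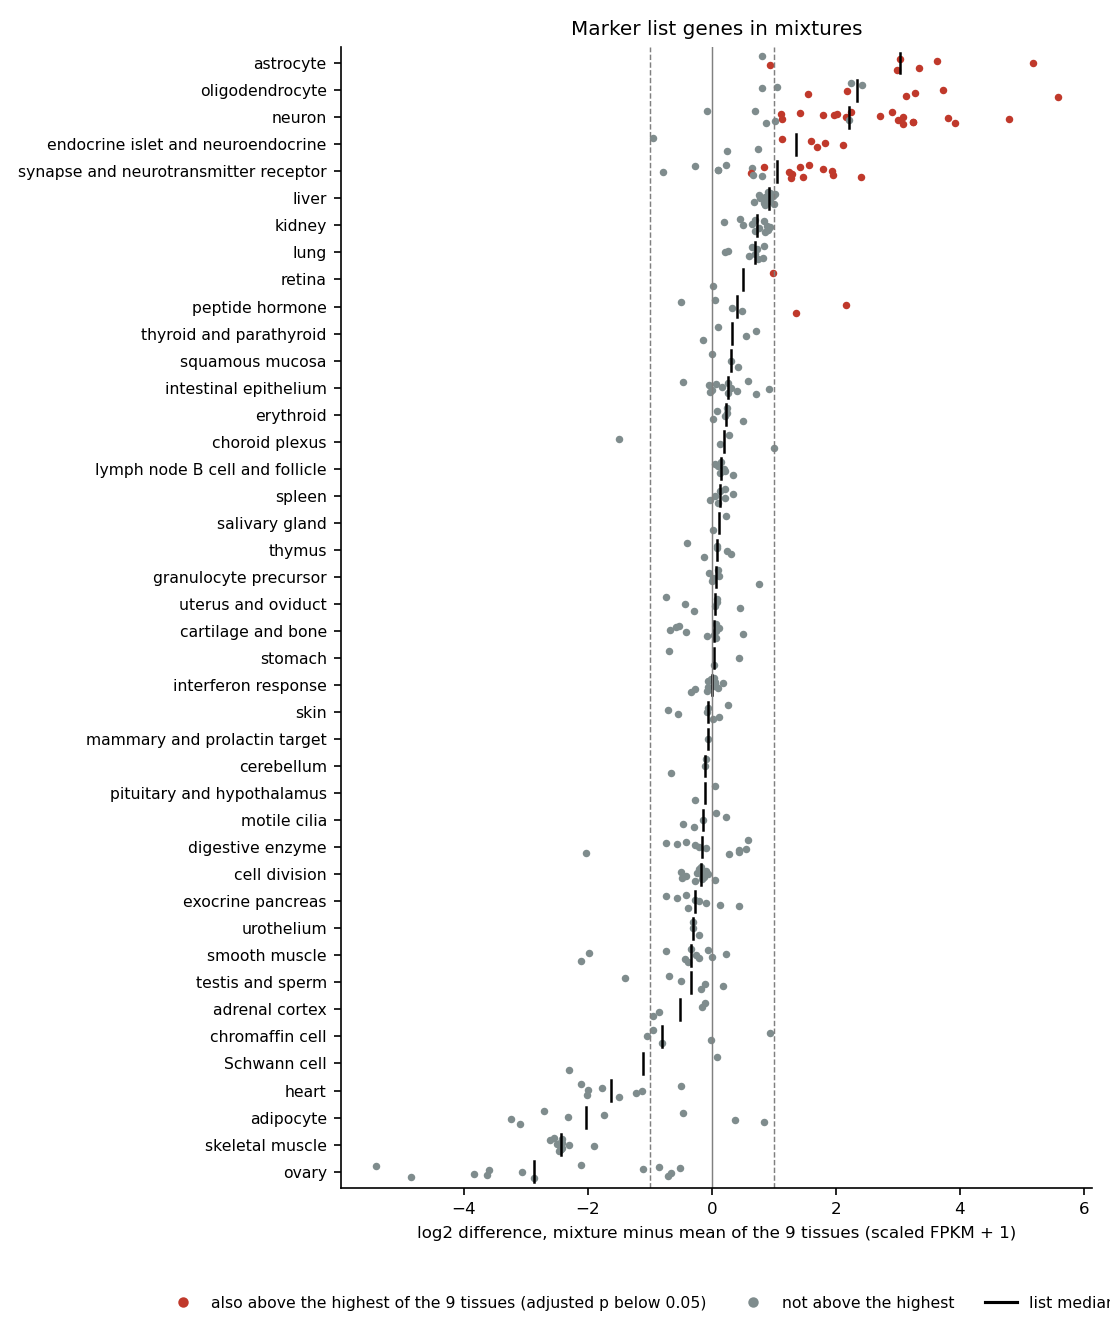
Log2 difference of scaled FPKM plus 1, mixture minus mean of the 9 tissues, for every tested gene of 42 marker lists; each point is the mean over 8 breeds of 1 gene, black bars are list medians, and dashed lines mark differences of −1 and 1. Red genes also lay above the highest of the 9 tissues, and nearly all of them stand in the neuron, astrocyte, oligodendrocyte, synapse and neuroendocrine lists.

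Of the 4 lists of nerve cell, glia and synapse genes, 58 genes were tested and 40 were above the highest of the 9 tissues. Of the other 38 lists, 249 further genes were tested and 7 were above it, beside 1.68% of all genes. The 7 were SCG2, SCG3, PTPRN, PCSK1, PCSK2, VIP and RLBP1, a carrier of vitamin A aldehyde in the retina, and SCG2 and PTPRN are among the 30 genes, which had to pass. The counts of the 4 lists include 6 of the 30 genes chosen for being in mixtures alone, which had to pass. The same choice put these genes above the tissue mean, and the list counts against that mean below include them too.

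The neuron list had 20 of 23 tested genes higher than the tissue mean past a log2 difference of 1 and none lower. Over all genes, 2.26% were higher and 5.17% lower past that limit. The list median was 2.21, and 18 genes were above the highest tissue. SYP, a synaptic vesicle protein, averaged 18.2 ± 6.15 scaled FPKM in mixtures and 0.959 ± 0.434 in the tissue mean (SD, n = 8 each), a log2 difference of 3.25. GAD1, which makes the inhibitory transmitter GABA, averaged 3.63 ± 1.97 scaled FPKM in mixtures and 0.0674 ± 0.0406 in the tissue mean (SD, n = 8 each), a log2 difference of 2.02 (SE 0.17, limma adjusted p = 3.57e-06), next to 3.81 for SLC17A7. The neuropeptide gene NPY had a log2 difference of 2.16 over the tissue mean and 0.94 over the highest tissue, spleen, with the mixture above in 7 of 8 breeds. The 3 genes that missed the limit also have high levels in a sampled tissue. CAMK2A, a kinase of synapses and muscle, averaged 21.8 ± 7.71 scaled FPKM in mixtures and 22.3 ± 3.88 in the tissue mean (SD, n = 8 each), with 89.5 in longissimus dorsi. CALB1, a calcium-binding protein, was highest in kidney at 90.4 scaled FPKM on average. UCHL1, a ubiquitin hydrolase of neurons and oocytes, was highest in ovary, at 54.1. STMN2 rose by 2.21 over the tissue mean but averaged 29.9 ± 9.50 scaled FPKM in mixtures, against 40.0 in spleen.

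The astrocyte list had 5 of 7 genes higher past a log2 difference of 1, beside 2.26% of all genes. Its median was 3.03, and 6 were above the highest tissue. SLC1A2 and SLC1A3, the glutamate uptake carriers of astrocytes, had log2 differences of 3.33 and 2.98 over the tissue mean, and of 1.93 and 1.42 over the highest tissue. ALDH1L1, a folate enzyme of astrocytes and liver, averaged 53.8 ± 12.5 scaled FPKM in mixtures (SD, n = 8) and 199.9 in liver. The oligodendrocyte list had 9 of 10 genes higher past that limit, with a median of 2.34, and 6 were above the highest tissue. CNP, an enzyme of myelin, had a log2 difference of 1.04 over the tissue mean (limma adjusted p = 0.000292) and of 0.04 over the highest tissue, spleen (limma adjusted p = 0.839). CLDN11, a tight junction protein of myelin, had a difference of 2.42 over the tissue mean and of 0.49 over the highest tissue, lung (limma adjusted p = 0.0705).

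Of 2 tested genes of the Schwann cell list, 0 were higher in mixtures past a log2 difference of 1. EGR2, a transcription factor of myelinating Schwann cells, had a log2 difference of 0.08 (limma adjusted p = 0.437).

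In the list of synapse proteins and transmitter receptors, 10 of 20 tested genes were higher past a log2 difference of 1 and none lower. Over all genes, 2.26% were higher past that limit. The list median was 1.05, and 12 were above the highest tissue. STX1A, a syntaxin of the release machinery, averaged 5.19 ± 1.56 scaled FPKM in mixtures and 0.559 ± 0.147 in the tissue mean (SD, n = 8 each), a log2 difference of 1.95. GRM3, a metabotropic glutamate receptor, had a difference of 1.94, and GRIA2, a subunit of the AMPA type of glutamate receptor, of 1.80. The dopamine receptor genes were low: DRD1 had at most 0.742 scaled FPKM in a mixture, and DRD2 had a median of 0.180 scaled FPKM in mixtures, with 2.59 in the highest. Among list genes of hormone-secreting cells, SCG2, PTPRN, SCG3, PCSK2 and PCSK1 were higher past a log2 difference of 1, which is 5 of 8 tested, and all 5 were above the highest tissue, SCG2 and PTPRN by the choice of genes. CHGA, a granin of the same granules, averaged 6.27 ± 1.90 scaled FPKM in mixtures and 13.5 ± 5.57 in the tissue mean (SD, n = 8 each), with 119 in ovary. VIP, a neuropeptide, averaged 1.83 ± 1.36 scaled FPKM in mixtures and 0.00577 ± 0.0163 in the tissue mean (SD, n = 8 each), a log2 difference of 1.36 (SE 0.20, limma adjusted p = 9.83e-05).

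Lists for several other organs, and for parts of the brain, had no gene that passed. In the lists for stomach, intestinal epithelium, exocrine pancreas, pituitary and hypothalamus, cerebellum, adrenal cortex, thyroid and parathyroid, skin, cartilage and bone, urothelium, thymus, salivary gland, motile cilia and testis, 0 genes were higher than the tissue mean past a log2 difference of 1 and 0 were above the highest tissue. Of 3 tested cerebellum genes, ZIC1, a transcription factor, had a log2 difference of −0.65 (limma adjusted p = 5.40e-05). Its highest tissue mean was in longissimus dorsi, and the difference was 0.030 with the mean of the log2 tissue values as reference. The choroid plexus list had 1 gene higher past that limit, TTR, which is also a liver gene, and 1 lower, OTX2, and 0 above the highest tissue. The retina list had RLBP1 above the highest tissue and 0 genes higher than the tissue mean past that limit. Most genes of several of these lists were too low to test: 8 of 10 for pituitary and hypothalamus, with at most 0.546 deposited FPKM in any mixture, and 6 of 9 for stomach, with at most 0.494. Of 387 matched list genes, 39 were in the mixture alone in at least 1 breed, beside 409 of all 25322 gene IDs. Of the 39, 28 were among the 65 genes of the 4 lists of nerve cells, glia and synapses, and 11 among the 322 others. The lists without any gene in the mixture alone in any breed numbered 33 of 42. These counts apply the rule that chose the genes in mixtures alone, and genes that met it in every breed had to be counted. The lists were chosen with earlier results of these data known, so the counts are a description and not a test. The 11 others were PCSK1, PCSK2, SCG2, SCG3, SCGN, PTPRN, RLBP1, VIP, NTS, ZIC2 and EPX, of which SCGN, NTS, ZIC2 and EPX met the rule in 1 breed each.

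The levels of brain list genes differed between mixtures, and only partly in step with each other. The sums below run over the list genes that lay above the highest tissue, in deposited FPKM, and are a description. The 18 neuron genes summed to 332 FPKM in the Bamei mixture, 249 in Hampshire, 230 in Jinhua, 222 in Large White, 190 in Berkshire, 179 in Piétrain, 118 in Landrace and 82.6 in Meishan, and to 78.7 in Rongchang. A sum over 5 of the 6 oligodendrocyte genes was 78.1 FPKM in Bamei, 58.8 in Landrace, 57.6 in Jinhua, 46.1 in Large White, 40.7 in Hampshire, 40.5 in Piétrain, 22.5 in Berkshire and 16.8 in Meishan, and 65.99 in Rongchang. Among the 8 breeds of the comparison, Bamei was thus highest and Meishan lowest for both. Jinhua, Large White and Piétrain also kept their rank, while Hampshire, Berkshire and Landrace changed places. The ratio of the neuron to the oligodendrocyte sum was 8.47 in Berkshire, 6.11 in Hampshire and 2.01 in Landrace, with the other 5 breeds between 3.99 and 4.92, and it was 1.19 in Rongchang. The 6 astrocyte genes summed to between 74.7 FPKM (Meishan) and 294 FPKM (Bamei).

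**Figure D4:**
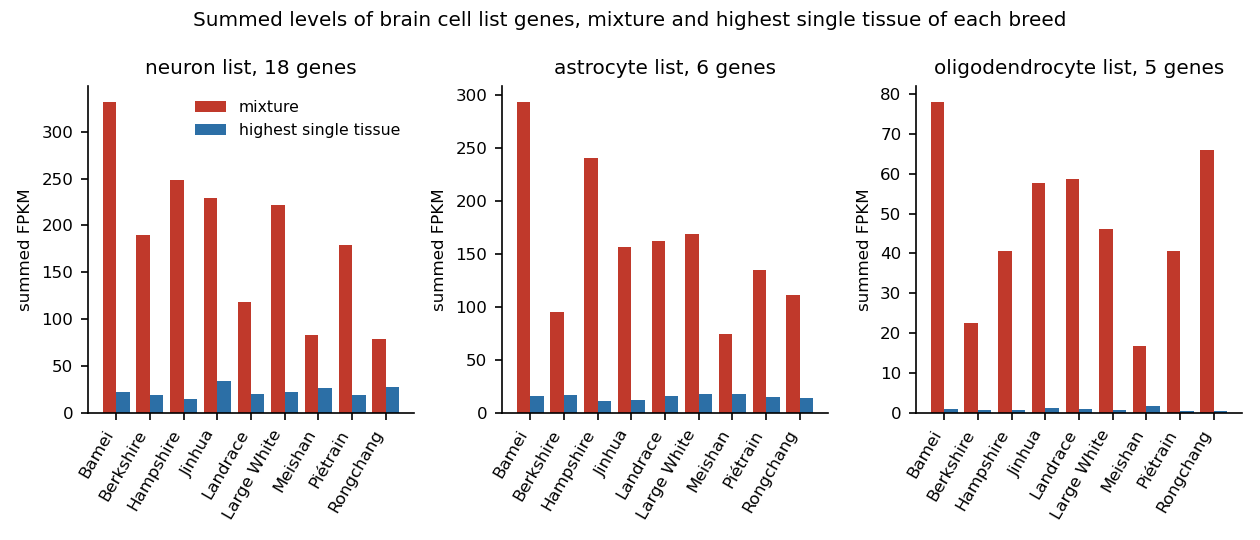
Summed deposited FPKM of the neuron, astrocyte and oligodendrocyte list genes that lay above the highest tissue, per breed, in the mixture (red, left bar) and in the single tissue with the highest sum (blue, right bar). Rongchang has 78.7 FPKM for neuron genes, the lowest of 9 mixtures, and 65.99 FPKM for oligodendrocyte genes, second to Bamei.

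Genes of the sampled tissues were present in mixtures in unequal parts. For each tissue list, the level in the mixture was taken as a percent of the level in the tissue itself. The median over list genes was used in each breed, on scaled FPKM. Equal parts of 9 tissues would give 11.1% for a list of a single tissue. For skeletal muscle an equal share would be larger, since psoas major and longissimus dorsi both count among the 9. The level was 22.5 ± 14.1% for lung, 21.1 ± 2.98% for liver, 20.5 ± 4.91% for kidney and 15.3 ± 5.71% for spleen (SD, n = 8 each). It was 4.86 ± 1.56% for heart, 4.59 ± 2.57% for skeletal muscle, 2.14 ± 0.876% for adipocyte genes and 0.0179 ± 0.0310% for ovary (SD, n = 8 each). In percentage points lung had the widest range between breeds, with 4.13% in Large White and 51.0% in Piétrain, while liver stayed between 16.1% and 25.8%. The ovary value was 0.00757% without Meishan. The percentages rest on the scaling, and on FPKM as deposited the liver value was 32.4% and the skeletal muscle value 7.93%. With a mean of log2 ratios over the list in place of the median, the adipocyte value was 7.02% and the ovary value 0.0533%.

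**Figure D5:**
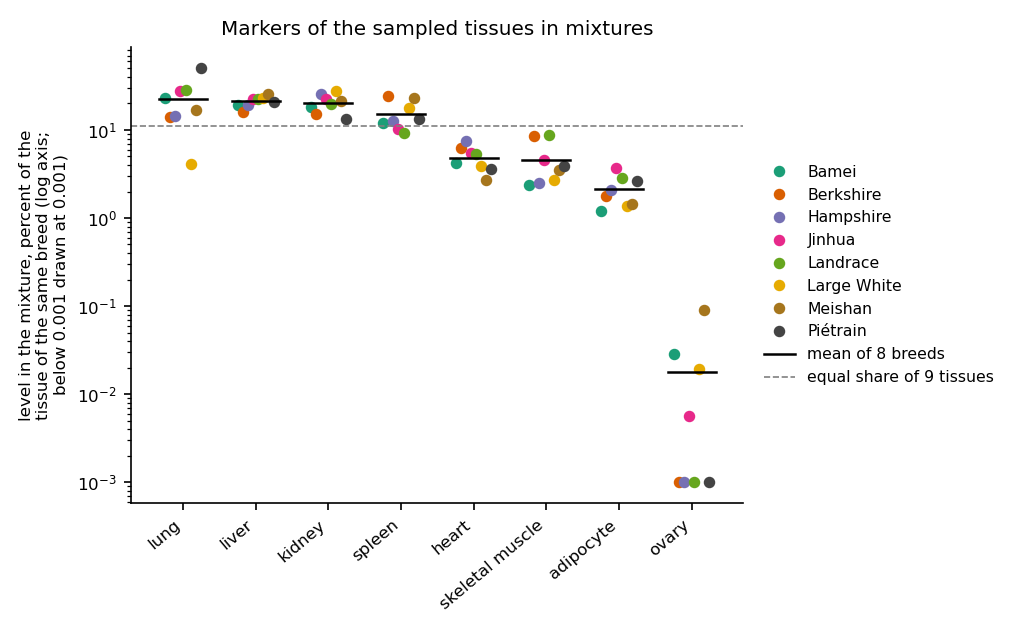
Level of each tissue's marker list in the mixture as a percent of its level in that tissue of the same breed (log axis, median over list genes on scaled FPKM); points are 8 breeds, bars their mean, and the dashed line the 11.1% of an equal share of a single tissue. The line is too low for skeletal muscle, which psoas major and longissimus dorsi both hold. Ovary genes lie below 0.1% in every mixture, and lung runs from 4.13% to 51.0%.

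Lists of skeletal muscle, heart, fat and ovary genes lay lower in mixtures. All 12 skeletal muscle genes were lower than the tissue mean past a log2 difference of 1, with a median of −2.43. So were 7 of 8 heart genes, 5 of 8 adipocyte genes and 9 of 13 ovary genes, beside 5.17% of all genes. When the reference was the mean of the log2 values, in which a gene of a single tissue counts for little, 0 genes of these 4 lists were lower past that limit, and 11 skeletal muscle genes and 5 heart genes were higher past that limit. The muscle myosin gene MYH8 averaged 226 ± 131 scaled FPKM in mixtures and 1194 ± 496 in the tissue mean (SD, n = 8 each), a log2 difference of −2.50 that was 4.18 with the mean of log2 values. PLIN1, which coats the lipid droplets of fat cells, averaged 5.62 ± 2.36 scaled FPKM in mixtures and 516 ± 93.1 in the highest tissue, subcutaneous adipose (SD, n = 8 each). Its log2 difference from the tissue mean was −3.24, which was 0.70 with the mean of log2 values. TRARG1, a protein of glucose carrier traffic in fat, had a log2 difference of −3.09 from the tissue mean, which was 0.61 with the mean of log2 values.

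Oocyte genes were close to absent. DPPA5, a gene of early germ cells, had at most 0.448 scaled FPKM in the mixtures and averaged 486 ± 217 in the highest tissue (SD, n = 8), which was ovary. ZP3, of the egg coat, had at most 0.551 scaled FPKM in the mixtures and averaged 318 ± 136 in the highest tissue (SD, n = 8), ovary again. PADI6 and ZAR1, maternal proteins of the egg, had at most 0.0578 and 0.0357 scaled FPKM in the mixtures, and FKBP6, a protein of meiosis, was listed at 0 in 8 of 8. KPNA7, a nuclear import protein of oocytes, had a log2 difference of −3.06 from the tissue mean. INHA, an inhibin subunit of follicle cells, averaged 0.901 ± 0.513 scaled FPKM in mixtures and 185 ± 90.6 in the highest tissue (SD, n = 8 each), ovary. GDF9, an oocyte growth factor, differed from these: it averaged 6.58 ± 0.539 scaled FPKM in mixtures and 15.5 ± 2.56 in the tissue mean (SD, n = 8 each). Liver genes had a median log2 difference of 0.92. Past a log2 difference of 1 there were 2, APOA2 and TTR, but 14 on FPKM as deposited and 8 when each breed was centred, and 0 without Landrace, Large White or Meishan. Kidney genes had a median of 0.73 and lung genes of 0.70, with 0 genes past that limit in either list, also on FPKM as deposited. With each breed centred, 3 kidney genes and 0 lung genes passed it, and with the mean of log2 values 11 and 9. Leaving out a breed gave up to 1 kidney gene and up to 4 lung genes.

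The remaining large falls were in genes with uneven values. MRC2, a collagen receptor, was listed at 0 in 4 of 8 mixtures and had 49.8 scaled FPKM in Meishan, 66.8 in Berkshire, 137 in Jinhua and 345 in Piétrain, and averaged 2276 ± 373 in the tissue mean (SD, n = 8). Its log2 difference had a wide error (−7.72, SE 3.03, limma adjusted p = 0.0416). SNORA21 was listed at 0 in 8 of 8 mixtures and averaged 25.7 ± 13.5 scaled FPKM in the tissue mean (SD, n = 8). SNORA2C was listed at 0 in 5 of 8 mixtures, had at most 72.1 scaled FPKM in the others, and averaged 59.9 ± 31.4 in the tissue mean (SD, n = 8). Both encode small nucleolar RNAs.

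The mixtures of 4 Chinese breeds, Rongchang included, were compared with those of 5 Western breeds for 14715 genes. With limma, 5 genes were higher in Chinese mixtures (0.034%) and 6 were lower (0.0408%), and 658 genes had an unadjusted p below 0.05. None of the 30 genes found in mixtures alone and none of 40 tested genes of the neuron, astrocyte and oligodendrocyte lists was among the 11, and 0 of the 30 had an unadjusted p below 0.05. The median log2 difference of the 30 genes was −0.12, and that of all genes was −0.00. The 2 called genes with a symbol were GBP1, an interferon-induced GTPase, and SNCG, a synuclein of nerve and fat. GBP1 had 2.43 to 4.17 scaled FPKM in the 4 Chinese mixtures and 0.442 to 0.840 in the 5 Western ones, a log2 difference of 1.44 (SE 0.14, limma adjusted p = 0.00375). SNCG had 0.405 to 0.477 scaled FPKM in the 4 Chinese mixtures and 3.59 to 9.71 in the 5 Western ones, a log2 difference of −2.41 (SE 0.21, limma adjusted p = 0.00375). For both genes the groups did not overlap. They were named because they were called in these same mixtures, so this adds no support. The share of all genes without overlap was not counted. Since the makeup of the mixtures is not given, origin and makeup cannot be told apart.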

How the data were processed

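The authors deposited FPKM per gene, made with TopHat and Cufflinks 2.2.1 on Sscrofa10.2, per the submitters' processing notes; annotation release, options and filters are not given in the sources used here. FPKM keeps no read counts, so counting error is unknown. No pair of the 92 libraries was identical, and each of the 92 columns matched a sample label. Symbols came from a table of gene IDs (11804 of 25322 IDs), and 387 of 585 symbols of 42 marker lists were matched.

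The 80 libraries of 8 breeds were scaled by median ratios. A gene was kept if 3 or more libraries reached 1 FPKM. Log2 of scaled FPKM plus a pseudocount of 1 was tested within breeds with limma 3.58.1 (one-sample moderated test, trend and robust options, two-sided) in R 4.3.3 with statmod 1.5.0, with Benjamini-Hochberg adjustment over all genes tested at 0.05. Fold changes on this scale understate the change of low genes. The pairing is by breed, from the labels. The p-values measure the spread between 8 breeds with 1 library each. Mixtures by origin were compared with a two-group limma test over 9 mixtures, scaled anew. The tests were checked on simulated data, in which the comparison with the tissue mean called many unchanged genes at any size, fewer with each breed centred, and few past a log2 difference of 1. Tables and figures used Python 3.11.15, matplotlib 3.10.9, scipy 1.17.1, pandas 2.3.3 and numpy 2.4.6.

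Genes with a symbol were named when among the 12 largest differences in either direction with the same sign in 8 of 8 breeds, the 12 largest above the highest tissue, the 30 genes in mixtures alone, up to 4 genes per list that passed, or called by origin. A few genes under this rule are not reported here. Other list genes were named after their values were seen. The genes, lists and tests were chosen with earlier results of these data known, and GBP1 and SNCG had already been seen to differ by origin. The alternatives tried were the mean of log2 values as the reference, centring each breed, a filter at 5 FPKM or none, quantile normalization, FPKM as deposited, a pseudocount of 0.1, moderation without trend and robust options, no replicate block, and leaving out each breed. Sequences and genome positions were not analysed here.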

Additional observations from a re-analysis of the deposited data

Results flagged for a closer look

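In 4 of 53 groups of 8 mixture values checked, a single mixture lay far from the others. Chance flags about 1 in 20 such groups when their values are normally distributed. That rate was not measured on these data, and some groups held several values at 0. MRC2 had 345 scaled FPKM in the Piétrain mixture, and the next highest mixture had 137. ZP3 had 0.551 scaled FPKM in the Berkshire mixture, and the next had 0.225. LAMP5 had 12.05 scaled FPKM in the Jinhua mixture, and the next had 5.95. The level of ovary list genes was 0.0900% of that in ovary for the Meishan mixture, and 0.0281% for the next. The causes were not tested.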

How the results depend on the processing

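Counts against the tissue mean moved with the scaling and the reference, and the cause was not tested beyond what the settings themselves change. Genes higher at any size numbered 1746 with quantile normalization, 5679 with the mean of log2 values as reference and 5324 with each breed centred, and genes lower 5451 with each breed centred. Past a log2 difference of 1, genes higher numbered 686 on FPKM as deposited, 653 with a pseudocount of 0.1, 259 with a filter at 5 FPKM and 1812 with the mean of log2 values. Genes lower numbered 1423 with quantile normalization, 1629 with a pseudocount of 0.1 and 28 with the mean of log2 values. Above the highest tissue, 132 genes were left with the filter at 5 FPKM, which tests fewer genes. By origin, 3 genes were higher with a pseudocount of 0.1 and with the filter at 5 FPKM, where 2 were lower. Genes in mixtures alone numbered 117 when 5 of 8 breeds sufficed and 144 when the mean of the 9 tissues had to be below 1 FPKM. With limits of 0.5 and 2 FPKM they numbered 28 and 29, and 15 and 13 of the 30 genes were kept. The level in the mixture was 32.4% of that in liver and 7.93% of that in skeletal muscle on FPKM as deposited. With a mean of log2 ratios over the list it was 7.02% for adipocyte genes and 0.0533% for ovary.

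The pairing by breed comes from the labels. With no replicate block, 2126 genes were higher and 7065 lower than the tissue mean, and 280 were above the highest tissue. Leaving out each breed gave 2706 to 2975 genes higher and 8080 to 8376 lower. Past a log2 difference of 1 it gave 365 to 412 higher and 865 to 920 lower. It gave 267 to 318 above the highest tissue, 31 to 44 genes in mixtures alone, and by origin 3 to 7 higher, the 3 without Jinhua, and 4 to 9 lower. With each breed left out, the percent of the tissue level ranged from 18.5% to 25.2% for lung and from 0.00757% to 0.0204% for ovary.

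For 136 named genes under 17 alternatives, 2157 values kept direction and side of the threshold, 91 kept direction but missed it, 10 passed it newly and 26 turned. These counts do not cover every pair of gene and alternative. With the mean of log2 values as reference, the log2 difference was 0.70 for PLIN1, 0.0081 for CNN1, 0.59 for ARPP21, 0.030 for ZIC1, 0.14 for SPAG6, 2.25 for ANKRD1, 4.81 for TNNC2, 0.61 for TRARG1, 4.18 for MYH8, 2.46 for MYBPC1, 1.22 for ADIG, 3.38 for MYH6, 3.62 for ATP2A1, 1.32 for DES, 0.0058 for MCM2, 0.62 for SMYD1, 3.10 for MYBPC3, 0.10 for UPK1B and 1.74 for CHGA, all negative against the arithmetic mean. With quantile normalization it was −0.11 for CLIC6, −0.0011 for ALAS2, −0.26 for DCT, −0.19 for LPO, −0.032 for CD8A and −0.12 for CD8B. On FPKM as deposited it was 0.052 for ARPP21. Depth is unknown, so values near 1 FPKM carry an unknown counting error. The direction of the neuron, astrocyte and oligodendrocyte lists held in the settings run: 13 to 23, 5 to 7 and 8 to 10 genes were higher past a log2 difference of 1.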
